A study of Mus musculus with 12 samples.

Results

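Toll-like receptors are membrane proteins by which dendritic cells sense microbial lipids, proteins and nucleic acids. The 8 receptors described here are Tlr1, Tlr2, Tlr3, Tlr4, Tlr6, Tlr7, Tlr8 and Tlr9, and they are 8 of the 18407 genes kept for testing. Their probes were found by matching the RefSeq accession of each probe to the gene symbol, with no use of a measured value. Tlr1, Tlr2, Tlr4 and Tlr6 act mainly at the cell surface, and Tlr3, Tlr7, Tlr8 and Tlr9 mainly in endosomes. TLR2 pairs with TLR1 or TLR6 to bind bacterial lipopeptides, and TLR4 with its partner Ly96 binds lipopolysaccharide. TLR3 binds double-stranded RNA, TLR7 and TLR8 sense single-stranded RNA and its breakdown products, and TLR9 senses DNA with unmethylated CpG. All of them signal through the adaptor Myd88 except TLR3, which uses Ticam1, and the signal ends in NF-kB and interferon regulatory factors. The comparison of interest was how the transcripts of surface and endosomal receptors moved over time.

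The cells were murine bone marrow-derived dendritic cells from female mice, aged 6 - 8 weeks per the labels, of a strain not given in the sources used here. Marrow was grown with GM-CSF at 20 ng/ml, and non-adherent or loosely attached cells were taken on day 7 as immature dendritic cells. They were exposed to 300 µg/ml of γ-PGA nanoparticles, which are particles of a biodegradable polymer of glutamic acid, and total RNA was taken at 0, 6, 12 or 24 h. The 4 groups held 3 samples each, from independent experiments per the design text. No untreated culture at 6, 12 or 24 h was among the samples, so exposure and time in culture cannot be told apart. The RNA was of whole cultures, so fewer cells of a type and less RNA per cell cannot be told apart either.

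Every sample had 2 kinds of value. The scanner values are log2 intensities minus the 75th percentile of the array, so a level of 0 is a spot as bright as that percentile. The value table, as the authors deposited it, holds linear ratios to the median of the 3 values at 0 h. The sources diverged with time. The changes of all genes correlated between them at r = 0.73 for 6 h, 0.54 for 12 h and -0.07 for 24 h, over 18407 genes that are not independent replicates. On the scanner values, arrays labelled 24 h correlated on average at 0.99 with those at 0 h but at 0.91 with those at 12 h, whereas the 24 h columns of the table correlated at 0.90 with those at 12 h. Between neighbouring times the correlation was -0.14 (from 6 to 12 h) and 0.38 (from 12 to 24 h). Results at 24 h and between 6 and 12 h therefore rest on which source is read. Each receptor is given in both sources, and a sentence on other genes names its source. The 3 slides followed time. The first held the 0 h arrays and 6 h replicate 1, the second the other two 6 h arrays and 12 h replicates 1 and 2, and the third 12 h replicate 3 and the 24 h arrays. Between 50.9% and 59.6% of spots per array were well above background, and 628 of 732 outlier spots lay on 6 h replicate 2. All 8 conventional dendritic cell markers on the list were well above background on every array at 0 h, among them Itgax, Cd74 and Zbtb46. Flt3 and Cd209a did not reach that on every array at 6 and 12 h. On the scanner values Clec10a changed by -3.30 at 6 h and -3.85 at 12 h, and Cd209a by -3.20 and -3.26. Zbtb46 was called higher at both times and the other 5 were not called. In the table Clec10a and Cd209a were also called lower at 6 and 12 h, and Flt3 was called higher.

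RefSeq promoters were available for Tlr1, Tlr2, Tlr3, Tlr6, Tlr8 and Tlr9 in the build GRCm38.p6, and none for Tlr4 and Tlr7. Each runs from 250 bases before to 50 after a transcript start. They were searched on both strands for 4 motifs: the NF-kB site, the interferon response element core (GAAA, any 2 bases, GAAA), the AP-1 site TGANTCA and the PU.1 site GAGGAAGT. Of 32851 mouse promoters of this length, 8.46% held the NF-kB motif, 3.44% the interferon core, 7.81% the AP-1 motif and 3.2% the PU.1 motif. The promoters of 4 receptors called higher in either source, and that of Tlr8, called lower, are shown because their transcripts carry the results that follow. Capitals mark motif matches.
Tlr1 (chr5:64933509-64933808, minus strand): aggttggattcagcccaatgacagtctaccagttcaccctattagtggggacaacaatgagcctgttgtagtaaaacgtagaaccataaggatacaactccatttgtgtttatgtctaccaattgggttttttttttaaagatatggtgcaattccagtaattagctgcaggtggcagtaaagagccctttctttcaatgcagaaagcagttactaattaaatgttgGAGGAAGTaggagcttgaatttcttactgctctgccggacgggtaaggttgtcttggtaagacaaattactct
Tlr2 (chr3:83841559-83841858, minus strand): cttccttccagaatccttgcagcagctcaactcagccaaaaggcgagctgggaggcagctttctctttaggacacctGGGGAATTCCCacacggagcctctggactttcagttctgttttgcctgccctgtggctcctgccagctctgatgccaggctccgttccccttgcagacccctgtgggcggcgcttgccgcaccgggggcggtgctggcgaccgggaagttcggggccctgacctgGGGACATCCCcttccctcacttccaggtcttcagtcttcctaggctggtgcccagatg
Tlr3 (chr8:45410331-45410630, minus strand): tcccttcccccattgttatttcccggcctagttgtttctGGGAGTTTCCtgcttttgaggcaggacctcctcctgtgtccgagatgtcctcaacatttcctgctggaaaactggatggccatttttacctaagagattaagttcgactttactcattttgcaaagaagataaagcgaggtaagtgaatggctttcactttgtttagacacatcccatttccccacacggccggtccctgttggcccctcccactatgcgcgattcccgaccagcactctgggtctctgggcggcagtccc
Tlr6 (chr5:64959117-64959416, minus strand): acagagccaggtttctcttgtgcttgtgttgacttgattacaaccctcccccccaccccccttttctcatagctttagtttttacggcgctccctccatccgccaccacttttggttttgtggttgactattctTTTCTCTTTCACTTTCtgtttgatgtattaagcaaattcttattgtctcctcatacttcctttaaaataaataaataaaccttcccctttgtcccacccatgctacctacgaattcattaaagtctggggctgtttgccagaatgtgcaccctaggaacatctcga
Tlr8 (chrX:167264280-167264579, minus strand): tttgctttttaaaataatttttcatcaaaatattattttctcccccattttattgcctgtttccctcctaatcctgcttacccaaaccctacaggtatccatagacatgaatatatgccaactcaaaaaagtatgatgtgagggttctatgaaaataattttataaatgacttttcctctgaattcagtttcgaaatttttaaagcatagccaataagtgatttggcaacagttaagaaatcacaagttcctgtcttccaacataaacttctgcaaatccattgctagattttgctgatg
The capitals are a PU.1 match in Tlr1, 3 NF-kB matches in Tlr2, 1 NF-kB match in Tlr3 and 2 interferon core matches in Tlr6. Of the Tlr2 matches, 2 overlap in the first run of capitals, at -173 and -172 from the start site, and the third is at -8. The Tlr6 matches overlap each other, at -116 and -110, and lie on the opposite strand. Tlr8 held no match, nor did a second start of Tlr1 and a second start of Tlr6. Tlr9 (chr9:106222348-106222647, plus strand, not shown) held an AP-1 match at -58 and a PU.1 match at 11. A match is a description of letters only. In the annotation Tlr1 and Tlr6 are next to each other on chromosome 5, and Tlr7 and Tlr8 on chromosome X.

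At 6 h the surface receptors Tlr1 and Tlr6 rose in both sources, and the endosomal Tlr8 fell on the scanner values. A receptor counts as called where it changed by at least 2-fold with an adjusted p under 0.05 (limma, Benjamini-Hochberg over all 18407 genes). On the scanner values 3 of 8 were called against 0 h, where 26.1% of all genes were called in either direction. The value table gave 4 of 8 called, against 25% of all genes, and all of them upward, against 13.3% of all genes. The groups did not overlap for 6 of 8 receptors on the scanner values and 7 of 8 in the table, where the shares over all genes were 75.5% and 72.3%. Those shares over all genes lie near the shares among the receptors, so separation from 0 h is not particular to them.

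At 12 h Tlr1 and Tlr6 were still higher, Tlr7 was higher in both sources, and Tlr3 rose on the scanner values alone. There 5 of 8 receptors were called, against 30.6% of all genes, and the table called 4 of 8, against 27.8%, again all upward, against 15.7%. All 8 receptors were separated from 0 h in each source, as were 79.4% of all genes on the scanner values and 77.2% in the table. With slide as a block, the receptors called at 6 and 12 h on the scanner values kept their direction. The 12 h changes were 2.20 for Tlr3, 1.17 for Tlr7 and -1.34 for Tlr8. Every blocked change from 0 h rests on 6 h replicate 1, the only array of a later time on the first slide. At 24 h the sources parted. On the scanner values limma called 0 of 8 receptors, where 0.837% of all genes were called. At an unadjusted p under 0.05 were 2 of 8, Tlr3 and Tlr7, beside 20.3% of all genes. In the table Tlr1, Tlr2, Tlr6 and Tlr7 were still called higher, 4 of 8 against 26.3% of all genes called either way and 13.3% called higher. Groups at 24 h and 0 h did not overlap for 4 of 8 receptors on the scanner values and 6 of 8 in the table, beside 44.6% and 78.1% of all genes.

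**Figure D1:**
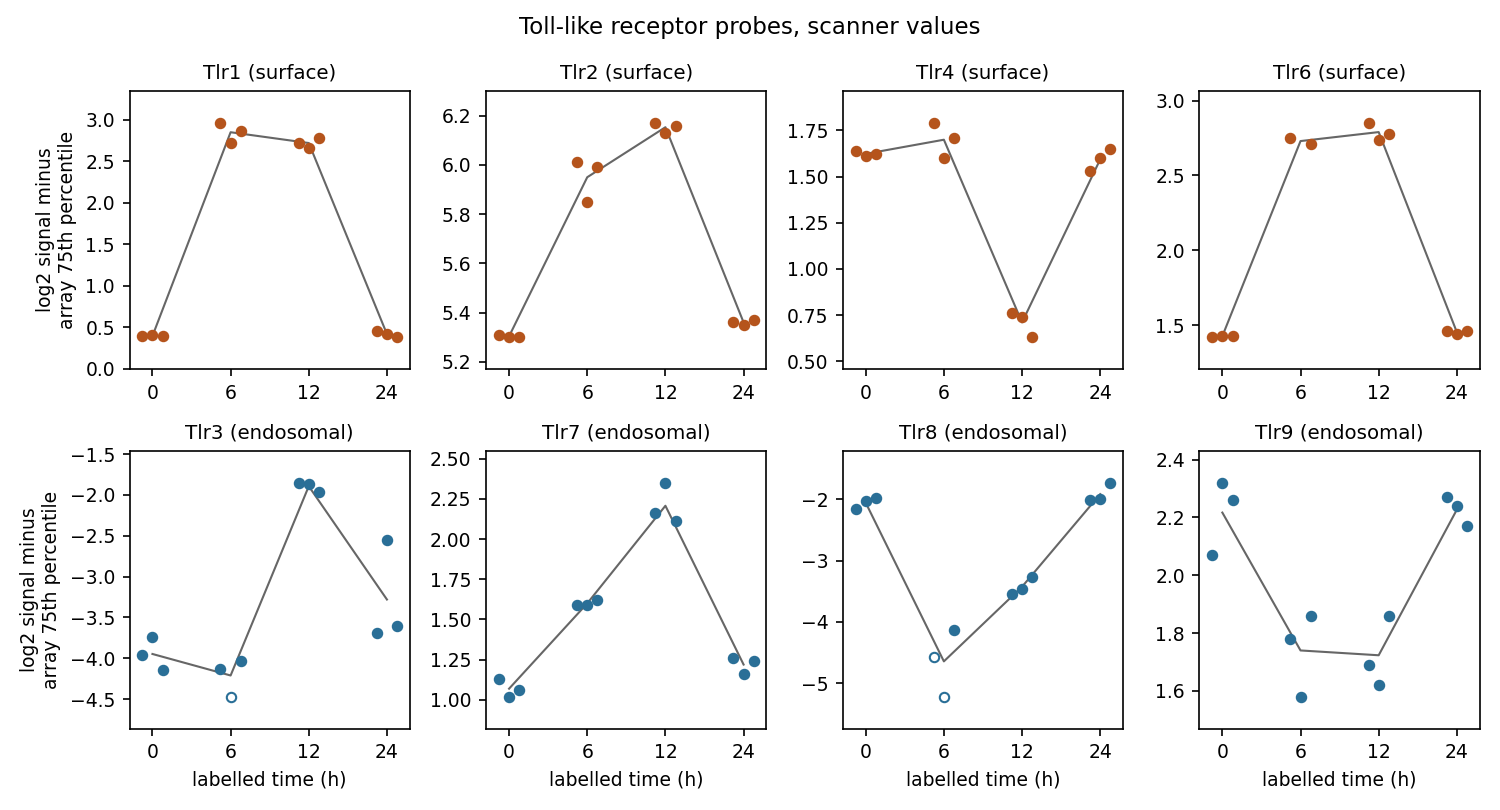
Level of each receptor probe on the scanner values (log2 signal minus the array's 75th percentile) by labelled time in h, with 1 point per sample and a line through the group means; open points were not well above background, and the axes differ between panels. Tlr1 sits between 0.38 and 0.45 at 0 and 24 h and between 2.66 and 2.96 at 6 and 12 h, while Tlr8 is lowest at 6 h.

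Tlr1, which with TLR2 recognises triacylated lipopeptides, moved most among the surface receptors. Its scanner levels were 0.39, 0.40 and 0.39 at 0 h and 2.96, 2.72 and 2.87 at 6 h. They were 2.72, 2.66 and 2.78 at 12 h and 0.45, 0.42 and 0.38 at 24 h. Every 6 h and 12 h sample lay far above every 0 h sample, the 6 h and 12 h groups overlapped, and so did 24 h and 0 h. The rise was 5.48-fold at 6 h (log2 2.45 ± 0.06, SE; limma adjusted p = 1.893e-10) and 5.01-fold at 12 h (log2 2.33 ± 0.06). With slide as a block the changes were 2.57 and 2.47. Both rest on the first slide, which holds all 0 h arrays and 1 array of 6 h.

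In the value table the Tlr1 ratios were 1.00, 0.939 and 1.11 at 0 h and 16.8, 15.7 and 14.9 at 6 h. They were 15.3, 15.4 and 13.8 at 12 h and 9.16, 8.72 and 9.32 at 24 h. The order was 6 h, 12 h, 24 h and 0 h, and only the neighbours 6 h and 12 h overlapped. The fold changes against 0 h were 15.5 at 6 h (log2 3.96 ± 0.08), 14.6 at 12 h and 8.94 at 24 h (log2 3.16 ± 0.08, limma adjusted p = 1.433e-10). The table thus gave a larger rise than the scanner values and one that was present at 24 h.

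Tlr6, which with TLR2 recognises diacylated lipopeptides, followed Tlr1 with a smaller rise. Its scanner levels were 1.42, 1.43 and 1.43 at 0 h, 2.75 and 2.71 at 6 h, 2.85, 2.74 and 2.78 at 12 h, and 1.46, 1.44 and 1.46 at 24 h. The only spot of the probe on 6 h replicate 2 was marked as an outlier and dropped, so that group had 2 values. All values at 6 and 12 h lay above those at 0 and 24 h, and the 6 h and 12 h values overlapped. The rise was 2.47-fold at 6 h (log2 1.31 ± 0.04, n = 2 at 6 h; limma adjusted p = 6.271e-09) and 2.58-fold at 12 h (log2 1.37 ± 0.04). With outlier spots kept it was 1.09 on the log2 scale at 6 h, still called.

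Tlr6 ratios in the table were 1.02, 0.985 and 1.00 at 0 h, 4.856, 3.965 and 3.997 at 6 h, 3.72, 3.57 and 3.88 at 12 h, and 3.12, 3.01 and 3.04 at 24 h. The groups lay in the order 6 h, 12 h, 24 h and 0 h, with no overlap between neighbours. The rises were 4.25-fold at 6 h (log2 2.09 ± 0.07), 3.72-fold at 12 h and 3.06-fold at 24 h (log2 1.61 ± 0.07, limma adjusted p = 1.868e-08). Across the 11 arrays with both values Tlr1 and Tlr6 had a Pearson r of 1.00, and across the 12 table columns 0.99, as a description of samples that fall into 4 groups and share arrays and scaling.

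Tlr2, the shared partner of Tlr1 and Tlr6, had a bright probe printed as 10 spots per array. Its scanner levels were 5.31, 5.30 and 5.30 at 0 h, 6.01, 5.85 and 5.99 at 6 h, 6.17, 6.13 and 6.16 at 12 h, and 5.36, 5.35 and 5.37 at 24 h. The groups did not overlap, in the order 12 h, 6 h, 24 h and 0 h. Its changes of 0.64 ± 0.04 at 6 h and 0.85 ± 0.04 at 12 h had limma adjusted p of 4.307e-07 and 4.135e-08 but lay under 2-fold (1.56-fold and 1.80-fold), so Tlr2 was not called on the scanner values.

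In the table Tlr2 passed the threshold at every time. Ratios were 1.00, 0.969 and 1.09 at 0 h, 4.14, 3.52 and 3.52 at 6 h, 3.62, 3.68 and 3.36 at 12 h, and 2.07, 2.05 and 2.10 at 24 h. The 6 h and 12 h columns overlapped and both lay above 24 h, which lay above 0 h. The rise was 3.65-fold at 6 h (log2 1.87 ± 0.07, limma adjusted p = 6.482e-09), 3.49-fold at 12 h and 2.03-fold at 24 h. The call at 24 h was close to the fold threshold and was lost without 0 h replicate 2 (log2 0.99) and with quantile normalization (log2 0.69).

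Tlr4, the lipopolysaccharide receptor, was the surface receptor that was called in neither source. Its probe was also printed as 10 spots per array. The scanner levels were 1.64, 1.61 and 1.62 at 0 h, 1.79, 1.60 and 1.71 at 6 h, 0.76, 0.74 and 0.63 at 12 h, and 1.53, 1.60 and 1.65 at 24 h. The 12 h samples were the low ones, apart from all others, and the 6 h and 24 h samples overlapped those at 0 h. The change at 12 h was -0.91 ± 0.06 (limma adjusted p = 1.482e-07), which is 1.88 times lower and short of 2-fold.

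The table placed the low point of Tlr4 earlier. Ratios were 1.00, 0.939 and 1.03 at 0 h, 0.718, 0.635 and 0.616 at 6 h, 0.812, 0.831 and 0.754 at 12 h, and 1.16, 1.11 and 1.15 at 24 h. The groups did not overlap, in the order 24 h, 0 h, 12 h and 6 h. The changes were -0.60 ± 0.07 at 6 h, -0.31 ± 0.07 at 12 h and 0.20 ± 0.07 at 24 h on the log2 scale, all under 2-fold (limma adjusted p of 2.171e-05, 0.002058 and 0.02129). With slide as a block the 12 h change was -0.07 (adjusted p = 0.536), and that at 6 h was -0.46.

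**Figure D2:**
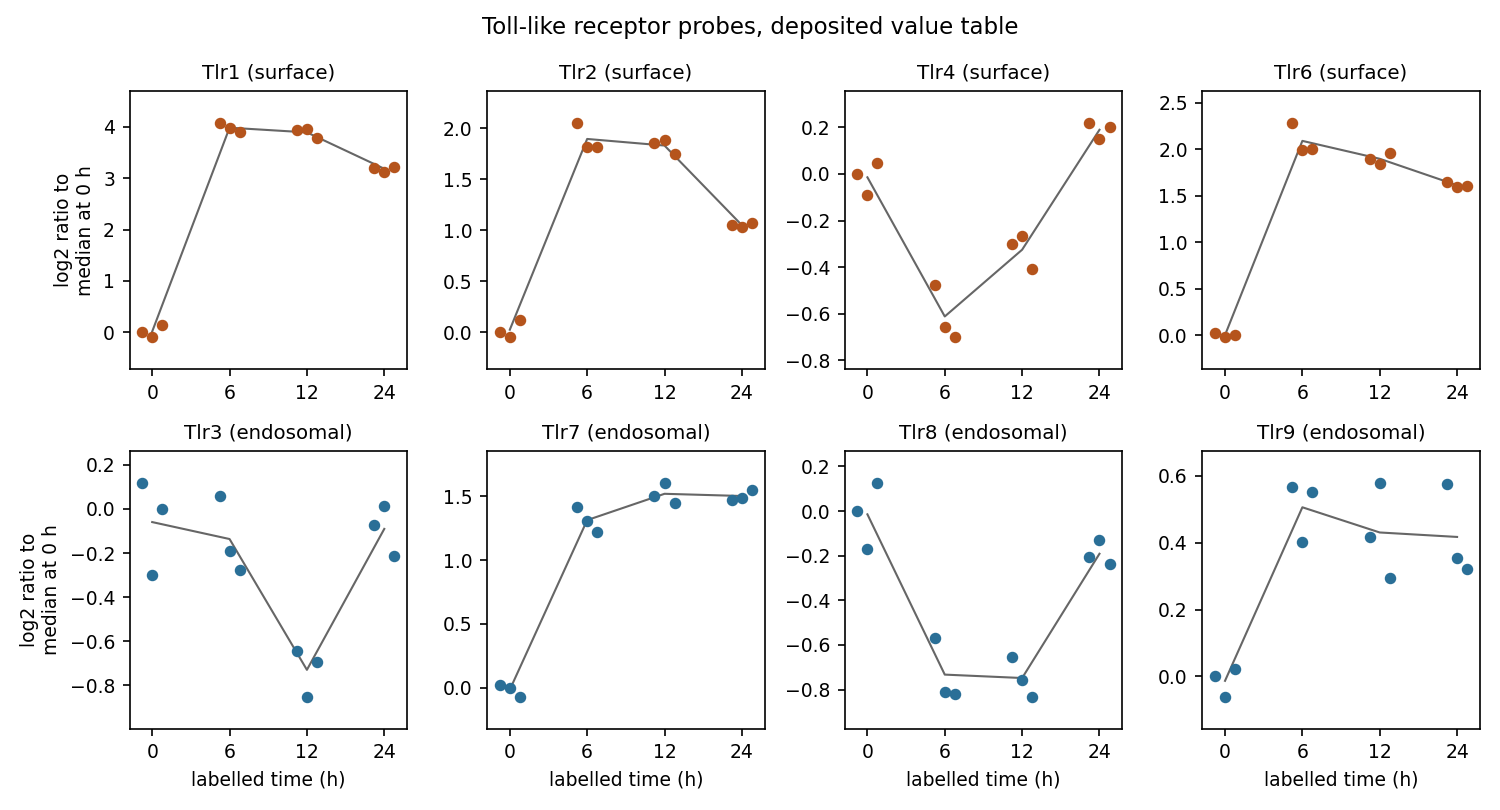
Value table ratio of each receptor probe (log2 of the ratio to the median at 0 h) by labelled time in h, with 1 point per sample and a line through the group means; the axes differ between panels. Tlr1, Tlr2, Tlr6 and Tlr7 stay above their 0 h samples at 6, 12 and 24 h, and Tlr4 and Tlr8 lie below theirs at 6 and 12 h.

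Among the endosomal receptors Tlr7, which senses single-stranded RNA, was the one that was called higher in both sources. Its scanner levels were 1.13, 1.02 and 1.06 at 0 h, 1.59, 1.59 and 1.62 at 6 h, 2.16, 2.35 and 2.11 at 12 h, and 1.26, 1.16 and 1.24 at 24 h. The groups did not overlap and stood in the order 12 h, 6 h, 24 h and 0 h. The change was 0.53 ± 0.06 at 6 h, under 2-fold, and 2.20-fold at 12 h (log2 1.14 ± 0.06, limma adjusted p = 4.465e-08).

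The Tlr7 ratios of the table were 1.02, 1.00 and 0.951 at 0 h, 2.67, 2.47 and 2.33 at 6 h, 2.84, 3.05 and 2.73 at 12 h, and 2.77, 2.80 and 2.94 at 24 h. All samples from 6 h on lay above those at 0 h, and 12 h and 24 h overlapped. Rises were 2.52-fold at 6 h (log2 1.33 ± 0.06), 2.90-fold at 12 h and 2.87-fold at 24 h (log2 1.52 ± 0.06, limma adjusted p = 7.753e-09). With quantile normalization between columns the 6 h change was 0.92 and not called.

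Tlr3, the receptor for double-stranded RNA, was dim. Its scanner levels were -3.96, -3.74 and -4.14 at 0 h, -4.13, -4.47 and -4.03 at 6 h, -1.85, -1.87 and -1.96 at 12 h, and -3.69, -2.55 and -3.60 at 24 h. The 12 h samples were high and apart from all others, 24 h replicate 2 stood above the other 24 h samples, and 6 h overlapped 0 h. At 6 h the probe was well above background on 2 of 3 arrays. The rise at 12 h was 4.15-fold (log2 2.05 ± 0.27, limma adjusted p = 4.778e-05). It was 0.98 and not called with normexp background correction. A second probe of the gene, with 12 h levels of -2.08, -1.86 and -2.13, changed by 2.53 ± 0.16 at 12 h and was called too. It was well above background on 2 of 3 arrays at 0 h and 1 of 3 at 6 h, so its size of change rests on 0 h levels near background.

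The table showed Tlr3 lowest at 12 h, opposite to the scanner values. Ratios were 1.09, 0.814 and 1.00 at 0 h, 1.04, 0.875 and 0.827 at 6 h, 0.640, 0.554 and 0.618 at 12 h, and 0.951, 1.01 and 0.863 at 24 h. The 12 h columns lay below all others, which overlapped one another. The 12 h change was -0.67 ± 0.12 (limma adjusted p = 0.0005972), under 2-fold, and those at 6 and 24 h were -0.08 and -0.03. With slide as a block the 12 h change was -0.40 ± 0.22, smaller and less precise but still downward. The 0 h and 12 h samples share no slide, so that fit joins them only through 6 h replicate 1 and cannot decide the direction. At 12 h the second probe changed by -1.21 ± 0.62 in the table, also downward, and was not called. The second probe had 24 h ratios of 6.32, 1.29 and 0.808, a spread within 1 group that the first probe did not show.

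Tlr8, the close relative of Tlr7, was the receptor called lower on the scanner values. Its scanner levels were -2.16, -2.03 and -1.98 at 0 h, -4.57, -5.22 and -4.14 at 6 h, -3.54, -3.47 and -3.27 at 12 h, and -2.02, -2.00 and -1.73 at 24 h. The 6 h samples were lowest, the 12 h samples lay between them and 0 h without overlap, and 24 h overlapped 0 h. Only 1 of 3 arrays at 6 h was well above background, so the low levels there are near the limit of the arrays. The fitted change was -2.58 ± 0.22 at 6 h (limma adjusted p = 2.295e-06). With the 2 values below background raised to the lowest level well above background on their arrays, the 6 h change was -2.17, still called. That is 4.5-fold lower under this setting, which was chosen after seeing the data, and it is not a lower bound. At 12 h, where all 3 arrays were well above background, the change was -1.37 ± 0.22 (adjusted p = 0.0002626), which is 2.58 times lower. With normexp correction the changes were -0.99 and -0.58, and neither was called.

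In the table Tlr8 had ratios of 1.00, 0.888 and 1.09 at 0 h, 0.674, 0.571 and 0.566 at 6 h, 0.635, 0.591 and 0.562 at 12 h, and 0.866, 0.915 and 0.848 at 24 h. The 6 h and 12 h columns overlapped each other and lay below all columns at 0 h and 24 h. The changes of -0.72 ± 0.09 at 6 h and -0.73 ± 0.09 at 12 h had limma adjusted p of 5.179e-05 and 4.069e-05 and were under 2-fold. The changes at 6 and 12 h were thus downward in both sources.

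Tlr9, the receptor for CpG DNA, was called in neither source, and its direction differed between them. The scanner levels were 2.07, 2.32 and 2.26 at 0 h, 1.78, 1.58 and 1.86 at 6 h, 1.69, 1.62 and 1.86 at 12 h, and 2.27, 2.24 and 2.17 at 24 h. The 6 h and 12 h samples lay below all others and overlapped each other. The changes were -0.47 ± 0.09 at 6 h and -0.49 ± 0.09 at 12 h (limma adjusted p of 0.001026 and 0.0007339).

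Tlr9 ratios were 1.00, 0.959 and 1.02 at 0 h, 1.48, 1.32 and 1.46 at 6 h, 1.34, 1.49 and 1.23 at 12 h, and 1.49, 1.28 and 1.25 at 24 h. Every column from 6 h on lay above those at 0 h, and the later groups overlapped. The changes were 0.52 ± 0.09, 0.44 ± 0.09 and 0.43 ± 0.09, all under 2-fold (limma adjusted p of 0.0004265, 0.001147 and 0.001477).

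**Figure D3:**
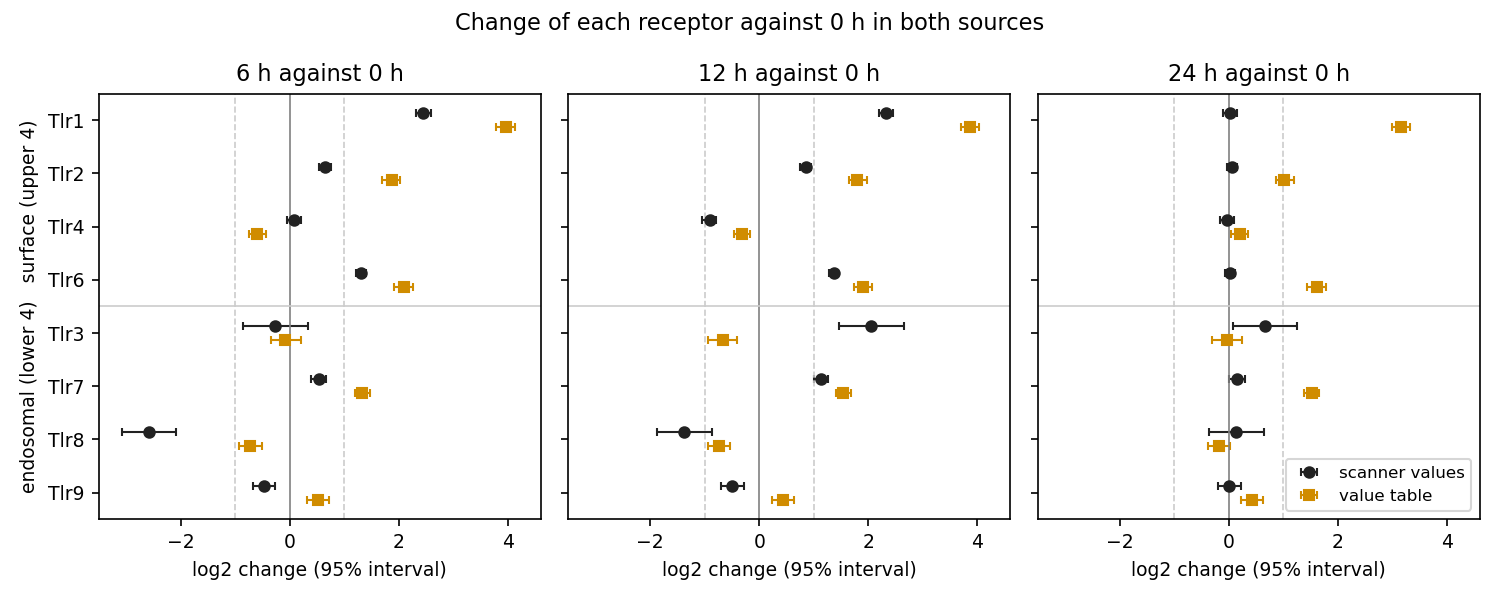
Change of each receptor against 0 h (log2, horizontal axis) at 6, 12 and 24 h, with bars for the 95% interval from the fit to 3 samples per group, for the scanner values and the value table; dashed lines mark 2-fold. At 24 h all scanner estimates lie between -0.03 and 0.67, while the table has Tlr1 at 3.16.

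Between neighbouring times the scanner values moved again. From 6 to 12 h limma called 2 of 8 receptors, Tlr3 (2.32 ± 0.27) and Tlr8 (1.21 ± 0.22), both upward and both endosomal, where 6.99% of all genes were called. The Tlr8 call rests on 6 h levels below background on 2 of 3 arrays: with these raised to the lowest level well above background the change was 0.80, under 2-fold, and that of Tlr3 was 2.25, still called. In the table it called 0 of 8, where 5.8% of all genes were called. At an unadjusted p under 0.05 were 4 of 8 there, beside 54.2% of all genes. The 6 h and 12 h groups did not overlap for 5 of 8 receptors on the scanner values and 4 of 8 in the table, beside 50.2% and 54.3% of all genes. From 12 to 24 h the scanner values had Tlr1 (-2.30 ± 0.06), Tlr3 (-1.39 ± 0.27) and Tlr6 (-1.34 ± 0.04) lower and Tlr8 (1.51 ± 0.22) higher, 4 of 8 against 31% of all genes. The table (limma) called 0 of 8 there, where 4.57% of all genes were called. The second Tlr3 probe, not counted here, was called higher in the table from 12 to 24 h (2.11 ± 0.62). An unadjusted p under 0.05 was reached by 6 of 8, beside 50.8% of all genes. Here 8 of 8 receptors on the scanner values and 6 of 8 in the table had groups apart, beside 79.3% and 58.7% of all genes. Without 6 h replicate 2, the lowest of its 6 h samples, the Tlr8 change from 6 to 12 h was 0.93 and not called.

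Set side by side, the median change from 0 h at 6 and 12 h was higher for the surface than for the endosomal receptors, in both sources. On the scanner values the median change was 0.97 for the 4 surface and -0.37 for the 4 endosomal receptors at 6 h, 1.11 and 0.32 at 12 h, and 0.02 and 0.15 at 24 h. The medians over all 18407 genes were -0.06, -0.03 and 0.04. In the table the surface median was 1.98, 1.85 and 1.32 and the endosomal median 0.22, -0.11 and 0.20, beside 0.14, 0.22 and 0.12 for all genes. These are medians of 4 receptors each with no test, and neither class moved as a unit. Tlr4 was not called among the surface receptors, and Tlr7 rose among the endosomal ones. At 12 h on the scanner values the surface Tlr4 changed by -0.91 and the endosomal Tlr3 by 2.05. The classes overlapped there, with changes from -0.91 to 2.33 for surface and from -1.37 to 2.05 for endosomal receptors.

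Sample by sample, the mean change of the surface receptors minus that of the endosomal receptors was 1.84, 1.90 and 1.63 at 6 h on the scanner values. It was 0.64, 0.54 and 0.54 at 12 h and -0.12, -0.38 and -0.17 at 24 h. The 6 h samples had the widest gap, the 12 h samples a smaller one, and the 24 h samples lay slightly below 0. The second value at 6 h rests on 3 of 4 surface receptors, since Tlr6 was dropped there. Tlr8 at 6 h, well above background on 1 of 3 arrays, is part of the endosomal mean. In the table the gap was 1.58, 1.57 and 1.55 at 6 h, 1.66, 1.67 and 1.68 at 12 h, and 1.05, 1.01 and 1.13 at 24 h, so it was of like size at 6 and 12 h and smaller at 24 h.

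**Figure D4:**
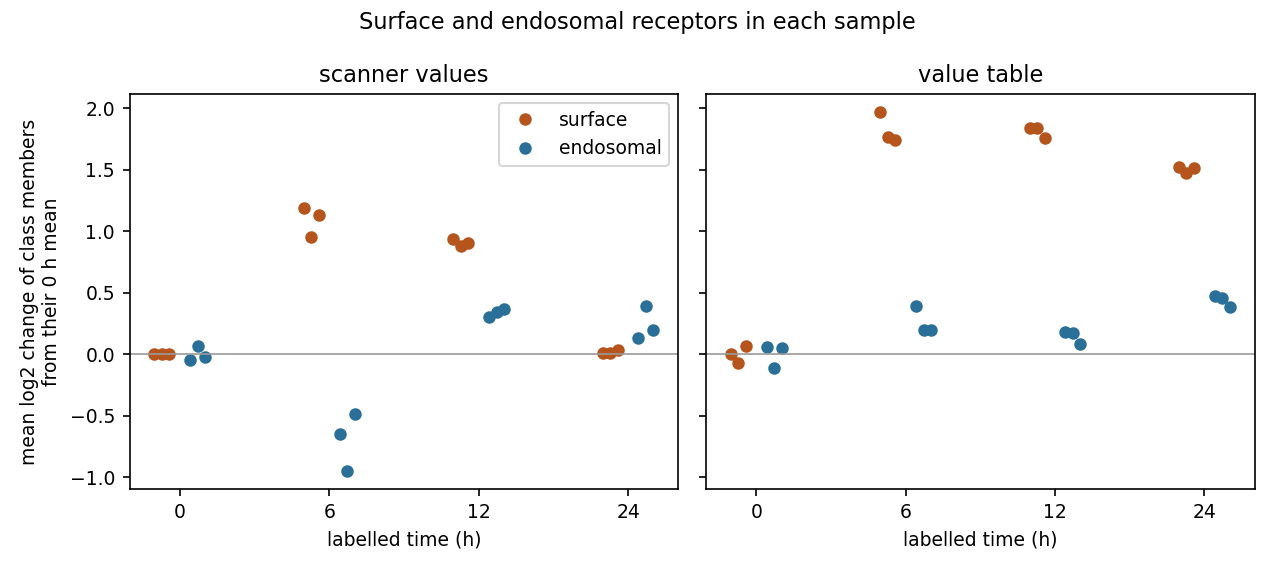
Mean log2 change of the 4 surface and the 4 endosomal receptors from their 0 h mean in each sample, by labelled time in h, for the scanner values (left) and the value table (right). Each point is 1 sample. The class means lie apart at 6 and 12 h in both panels and at 24 h in the value table.

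Genes whose profile was most like that of a receptor were ranked by the smaller of 2 Pearson correlations, over the 12 arrays and over the 12 table columns, among 11380 genes with a symbol (11381 for Tlr6). The measure is a description across 4 groups of samples that share arrays and scaling. Tlr1 was closest to Pvr and to the chemokine Cxcl3 (both 0.998). Among the 2 genes most like Tlr2 was Bcl3 (0.995). For Tlr6 the closest were Dnajb4 (0.996) and Alcam (0.995), over 11 arrays, and for Tlr7 Tnfrsf11a (0.987) and Rasa4 (0.986). Tlr8 was closest to Tcn2 (0.971) and Entpd1 (0.959), Tlr4 to Scd2 (0.929) and Idh3a (0.919), and Tlr3 to Bbx (0.883) and Bambi (0.769). Among the 2 genes most like Tlr9 was Krtap5-1 (0.906). Of the neighbours given here, the closest were those of Tlr1 and the most distant those of Tlr3.

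The lists that follow are set beside the shares of all genes called in either direction, which were 26.1% at 6 h and 30.6% at 12 h on the scanner values and 25%, 27.8% and 26.3% at 6, 12 and 24 h in the table. Of 10 co-receptors, carriers and chaperones, which hand ligands to the receptors or fold them, 2 rose and 1 fell at 6 h and 2 rose and 2 fell at 12 h on the scanner values. These counts lie near the shares over all genes. The table had 4 that rose and 2 that fell at each of 6, 12 and 24 h. The median change of the list was -0.06 and 0.16 at 6 and 12 h on the scanner values and 0.31 and 0.44 in the table. Cd14, which hands lipopolysaccharide to TLR4, was saturated at 6 and 12 h and rose at least 2.45-fold and at least 2.79-fold on the scanner values (limma adjusted p of 2.397e-08 and 6.858e-09; means of 7.27 and 7.46 against 5.98). The table gave 5.55-fold at 6 h and 3.93-fold at 24 h. Ly86, the partner of the surface receptor Cd180, fell by 2.12 at 6 h on the scanner values and by 2.17 in the table. The sources opposed each other for Cd36, a scavenger receptor that presents lipids to TLR2 and TLR6: it fell by 1.09 at 12 h on the scanner values and rose 5.06-fold in the table. Lbp, the lipopolysaccharide-binding protein, was not called on the scanner values (0.21 at 12 h) and fell by 1.38 in the table.

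Of 18 adaptors and kinases downstream of the receptors, 6 rose and 2 fell at 6 h and 6 rose and 1 fell at 12 h on the scanner values. The table had 5 higher at 6 h, 5 at 12 h and 2 at 24 h, beside 25%, 27.8% and 26.3% of all genes called. The shares over all genes on the scanner values were 26.1% and 30.6%. The median change was 0.37 and 0.71 on the scanner values and 0.56 and 0.39 in the table at 6 and 12 h. Ikbkg, the regulatory subunit of the IκB kinase, rose 5.50-fold at 6 h on the scanner values. Its rise in the table was 6.39-fold. Ikbke, a kinase of interferon regulatory factors, rose 5.51-fold and 3.68-fold at 12 h. The proximal kinase Irak4 fell by 1.09 at 6 h on the scanner values alone, with a change of -0.01 in the table, and so did Tab1, a partner of the kinase Map3k7 (-1.09 against -0.36). Myd88, the adaptor of all these receptors but TLR3, rose 2.51-fold at 6 h and 4.23-fold at 12 h on the scanner values. In the table it was not called, with changes of 0.80 at 6 h, 0.26 at 12 h and -0.54 at 24 h. At 24 h limma called 0 of 18 on the scanner values, beside 0.837% of all genes. At an unadjusted p under 0.05 were 6 of 18, beside 20.3% of all genes.

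Among 9 negative regulators, 5 rose and 2 fell at 6 h and 4 rose and 2 fell at 12 h on the scanner values, beside 26.1% and 30.6% of all genes called. By the table, 3 rose and 2 fell at either time, beside 25% and 27.8%, and 2 rose and 2 fell at 24 h, beside 26.3%. At 24 h limma called 0 of 9 on the scanner values, beside 0.837% of all genes. At an unadjusted p under 0.05 were 3 of 9, beside 20.3% of all genes. The median change was 1.10 and 0.66 on the scanner values and 0.16 and 0.10 in the table at 6 and 12 h. Tnfaip3, a ubiquitin-editing inhibitor of NF-kB, rose 10.1-fold at 6 h on the scanner values. The table put that rise at 15.5-fold. Il1rl1, a receptor of the interleukin 1 receptor family, fell by 3.29 and 4.13 at 6 h, and Sigirr, an inhibitory member of that family, by 2.48 and 2.35. All 3 columns at 24 h held the lowest ratio of the table, 0.01, for Il1rl1, so its change there is not a measured size. Socs1, an inhibitor of cytokine signalling, rose 16.3-fold at 12 h on the scanner values. In the table it changed by -0.59 at 12 h and fell by 1.49 at 24 h.

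Of 9 transcription factors of the pathway, 6 rose at 6 h and 6 at 12 h on the scanner values, beside 26.1% and 30.6% of all genes called either way. Genes called higher were 1871 and 2524 of 18407. By the table, 7, 6 and 4 rose at 6, 12 and 24 h, beside 13.3%, 15.7% and 13.3% of all genes called higher. The median change was 1.58 and 2.16 on the scanner values and 1.76 and 1.73 in the table at 6 and 12 h. The genes that rose at 6 and 12 h in both sources include Nfkb1, Nfkb2, Relb and Irf8. Irf7, which drives type I interferon genes after TLR7 and TLR9 signals, rose 3.79-fold at 6 h and 22.8-fold at 12 h on the scanner values. In the table these rises were 4.55-fold and 3.48-fold. Rel was below background on all arrays at 0 and 24 h, so it passed the filter only through 6 and 12 h, where it was high. On the scanner values it rose at least 3.41-fold at 6 h and at least 3.68-fold at 12 h (means of -2.73 and -2.62 against -5.09). That rise is tied to the filter, and the counts and medians of this list include Rel. The table called it higher too, by 3.94 at 6 h, 2.72 at 12 h and 1.76 at 24 h on the log2 scale. At 24 h limma called 0 of 9 of these factors on the scanner values, beside 0.837% of all genes. At an unadjusted p under 0.05 were 3 of 9, beside 20.3% of all genes.

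Of 5 proteases that cut the ectodomains of endosomal receptors, 1 fell at 6 h on the scanner values, beside 26.1% of all genes called either way. By the table, 2, 4 and 4 rose at 6, 12 and 24 h, beside 13.3%, 15.7% and 13.3% of all genes called higher. The median change at 12 h was 0.21 on the scanner values and 1.29 in the table. Lgmn, an endosomal endopeptidase, fell by 1.19 at 6 h on the scanner values, while its table change was 0.73. Ctsk, cathepsin K, changed by -0.09 at 12 h on the scanner values and rose 12.5-fold in the table. Ctsl and Ctss were saturated on the 3 arrays of every group, so their scanner levels give no fold.

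Markers of other cells in such cultures were detected, and their summed levels are given on the scanner values, where the brightest genes carry a sum. All 5 measured of 6 plasmacytoid dendritic cell markers were well above background in every group, without Siglech. Their summed level is in multiples of the 75th percentile. It was 13.7 to 14.1 at 0 h, 11.8 to 12.9 at 6 h and 13.5 to 14.9 at 12 h. The like sums at 0 and 12 h hide opposite changes. At 12 h Tcf4 (2.04) was called higher and Spib (-2.63) and Klk1 lower on the scanner values. In the table Ccr9 (1.88), Cox6a2 (2.17) and Spib (1.13) were called higher at 12 h and Klk1 (-3.16) lower. The B cell markers Cd79a and Pax5 were not detected, and the other 4 summed to 1.10 to 1.21 at 0 h and 1.51 to 1.78 at 12 h. The 6 macrophage and monocyte markers on the array summed to 165 to 166 at 0 h, 141 to 157 at 6 h and 266 to 294 at 12 h. That sum hides opposite changes, since at 12 h Fcgr1 was called higher and C1qa and Ccr2 lower on the scanner values, and 4 of the 6 were called lower in the table. The 7 granulocyte markers on the array summed to 293 to 301 at 0 h and 335 to 383 at 12 h. At 12 h none of the 7 was called by limma on the scanner values, beside 30.6% of all genes. An unadjusted p under 0.05 was reached by 7 of 7, beside 77.1% of all genes. Among the 7, Elane (-0.73), Ltf (-0.42) and Mpo (-0.37) were lower, and Camp (0.80) and Ngp (0.74) were among those higher. By the table, 4 of 7 fell at 12 h and 7 of 7 at 24 h, beside 2227 and 2387 of 18407 genes called lower. Of 6 T and NK cell markers, 3 were detected at 0, 6 and 12 h and 4 at 24 h. The 5 measured markers, detected in a group or not, summed to 0.996 to 1.07 at 0 h and 0.637 to 0.801 at 6 h. At 6 h Lck was called higher and Cd3d and Klrb1c lower on the scanner values. Lck was not well above background on every array at 0 h, nor was Klrb1c at 0 and 6 h. The 3 mast cell markers detected summed to 2.59 to 2.70 at 0 h and 3.06 to 3.19 at 12 h, and 1 of 5 erythroid markers, Hba-a1, was detected. The part of these cells in the receptor changes was not tested.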

How the data were processed

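The scanner files hold the intensity of each spot on 12 1-colour Agilent arrays, made with Agilent Feature Extraction 9.1.3.1 per the submitters' processing notes, and the processed signal is already background-subtracted per the file headers. The value table as deposited holds linear ratios to the median at 0 h, with a lowest value of 0.01, and no source used here states how its columns were scaled. Control spots (1639 of 45018) and 732 outlier spots were left out. Scanner values are log2 of the processed signal minus the 75th percentile of the array, averaged over the spots of a probe. A probe was kept if well above background on all 3 arrays of at least 1 group, which left 23496 of 41174 probes. RefSeq accessions (GRCm38.p6) named 22951 probes. The brightest kept probe stood for a gene, which gave 18407 genes, 11580 with a symbol. All 8 receptors passed this filter.

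Each source was fitted with limma 3.58.1 in R 4.3.3 (files read with the package data.table, version 1.17.8), as 4 group means over 12 samples with 8 residual degrees of freedom, and p-values were adjusted over all genes. The scripts were tested on simulated data. Fold changes of probes below background or saturated in a whole group are bounds: the bright mean against, per array, the higher of the probe's own level and the lowest level of a probe well above background. The receptors, the gene lists and the rule for names were chosen with earlier results of these data known. The rule named all receptors, and from each other list up to 2 genes with the largest rise and 2 with the largest fall among those called against 0 h in either source. For likeness it named the 2 genes closest to each receptor, and 1 each for Tlr2 and Tlr9 is not reported here. Nfkb1, Nfkb2, Relb, Irf8, Myd88, Ctsl and Ctss were named after their values were seen. Tlr5, Tlr11, Tlr12 and Tlr13 had no matching accession and are not analysed here. The scanner files had no mean signal, so normexp was run on the median signal, an alternative chosen after seeing the data, as was raising values below background to the lowest level well above background on their array.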

Additional observations from a re-analysis of the deposited data

Results flagged for a closer look

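The effects against 0 h differed between times for 4 receptors on the scanner values, by the contrast between the times itself (limma, adjusted p under 0.05 and at least 2-fold). From 6 to 12 h Tlr3 differed by 2.32 (adjusted p = 5.498e-05) and Tlr8 by 1.21 (adjusted p = 0.001299), and all 3 samples of 12 h lay above all 3 samples of 6 h for both. For Tlr8 the 6 h levels were below background on 2 of 3 arrays, and with these raised to the lowest level well above background the difference was 0.80 and not called. From 12 to 24 h the differences were -2.30 for Tlr1 (adjusted p = 1.999e-10), -1.39 for Tlr3 (0.0008259), -1.34 for Tlr6 (1.873e-09) and 1.51 for Tlr8 (0.0001279), with all samples apart. None of these 6 differences was called in the value table, where they were -0.59, -0.02, -0.71, 0.64, -0.28 and 0.56 in the same order. The second Tlr3 probe, which did not stand for the gene, was called from 12 to 24 h in both sources, in opposite directions. It changed by -2.26 ± 0.16 on the scanner values and by 2.11 ± 0.62 in the table, where its 24 h ratios were 6.32, 1.29 and 0.808.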

How the results depend on the processing

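For the receptors, 904 of the scanner and 387 of the table values under another setting kept direction and side of the threshold. With only the 2 groups compared in the fit, and so without the 24 h arrays at 6 and 12 h, no receptor call changed. Normexp ended the calls of Tlr8 (6 h -0.99, 12 h -0.58, 12 against 6 h 0.42, 24 against 12 h 0.56) and Tlr3 (12 h 0.98, 24 against 12 h -0.85). Raising values below background to the lowest level well above it ended 1 call, Tlr8 from 6 to 12 h (0.80). Leave-one-out settings and quantile normalization brought Tlr4 from 6 to 12 h past 2-fold (up to -1.04), and leave-one-out settings did so for Tlr7 from 12 to 24 h (up to -1.03). The values that changed sign were all small and uncalled. On the scanner values they were Tlr8 -0.02, Tlr6 -0.04 (24 h) and Tlr6 -0.03 (12 against 6 h) with normexp, Tlr9 -0.01 (24 h) and Tlr2 -0.02 (12 against 6 h) with quantile normalization, Tlr4 0.22 and Tlr9 -0.13 with the slide as a fixed block, and Tlr4 0.01 and Tlr9 -0.01 with it as a random block (24 h). Leaving out 1 sample at a time, Tlr9 ranged from -0.06 (without 0 h replicate 1) to 0.06 at 24 h and from -0.10 to 0.04 (without 6 h replicate 3) from 6 to 12 h. In the table they were Tlr3 0.22 (6 h) and 0.30 and Tlr8 0.08 (24 h) with quantile normalization, and Tlr3 0.12 (6 h) and 0.21 and Tlr8 0.19 (24 h) with slide as a block. Leaving out 1 sample, Tlr3 ranged from -0.20 to 0.01 at 6 h and from -0.15 to 0.06 at 24 h, both highest without 0 h replicate 1. The causes were not tested. The random block left out Tlr6, which lacks 1 value.

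Counts of all genes called on the scanner values at 6, 12 and 24 h, 12 against 6 h and 24 against 12 h were 4800, 5632, 154, 1286 and 5714. They were 2587, 3072, 8, 577 and 3154 with normexp, and 13208, 13919, 658, 8731 and 13841 with no minimum fold. At 24 h they were 96 with no filter on dim probes, 393 with only the 2 groups, 23 and 10 with the slide as a fixed and as a random block, and 86 with the replicate number as a block. Probes well above background on all 12 arrays gave 47 at 24 h and 806 for 12 against 6 h. Leave-one-out fits gave 4736 to 4931, 5595 to 5673, 24 to 291, 1263 to 1375 and 5509 to 5998, with the lowest at 24 h without 24 h replicate 2 and the highest without 12 h replicate 3. The 24 h count also fell to 48, 46 and 38 without 0 h replicates 1, 2 and 3, and to 38 and 29 without 24 h replicates 1 and 3. Table counts of 4609, 5116 and 4835 at 6, 12 and 24 h became 3288 at 12 h and 3167 at 24 h with quantile normalization and 13106, 13601 and 13354 with no minimum fold, and 4511 to 4766, 4989 to 5193 and 4747 to 4860 leaving out 1 sample. Deviations from the group mean correlated over r = 0.1 in 2 of 18 same-numbered scanner pairs and 1 of 18 table pairs. For pairs with different numbers it was 0 of 36 and 2 of 36. Whether same-numbered samples came from the same experiment is not stated, and so few pairs cannot decide it. The replicate block changed no receptor call. A slide or leave-one-out fit with 1 sample in a group assumes that it varies like the others. The number of arrays limits the precision, and Tlr3 and Tlr8 lie near background.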

Other observations

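Cytosolic sensors of RNA, DNA and peptidoglycan, the counterparts of the endosomal receptors inside the cell, were called higher more often at 12 h than at 6 h on the scanner values. Of 8 measured, 2 rose at 6 h, near the 26.1% of all genes called there, and 6 at 12 h, beside 30.6%. Of the 8, 6 were also higher at 12 h than at 6 h, beside 6.99% of all genes called. The value table did not show this: 2 rose at 6 h, 2 rose and 1 fell at 12 h, and 2 fell at 24 h, beside 25%, 27.8% and 26.3% of all genes. Ifih1, a sensor of long double-stranded RNA, rose 3.07-fold at 6 h and 9.26-fold at 12 h on the scanner values (limma adjusted p of 6.834e-09 and 4.139e-11) and 4.88-fold and 2.46-fold in the table. Zbp1, a sensor of Z-form nucleic acid, rose 10.2-fold at 12 h on the scanner values, where its table change was -0.14. Ddx58, which senses RNA with triphosphate ends, rose 4.54-fold at 12 h on the scanner values and fell by 1.06 in the table. Aim2 was the sensor called lower at 24 h on the scanner values, chosen for mention after its value was seen. It was below background on all arrays at 6, 12 and 24 h, so it passed the filter only through the 0 h arrays, where it was high. Its fall from 0 h is tied to that filter and is not a separate finding. The fitted change at 24 h was -1.25 (means of -5.29 and -4.04). As a bound, it was at least 1.87-fold lower, which is short of 2-fold. Its table change at 24 h was -0.32 and not called.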
